A study of Rattus norvegicus with 20 samples.

Results

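The miR-30 family arms are the 8 rat miRNAs rno-miR-30a-5p, rno-miR-30b-5p, rno-miR-30c-5p, rno-miR-30d-5p, rno-miR-30e-5p, rno-miR-30a-3p, rno-miR-30c-2-3p and rno-miR-30e-3p (rno, for the rat, is left off below except where a member's values are introduced). They were taken by name from the 677 rat miRNAs on one-colour Agilent arrays, and all 8 were among the 217 miRNAs that the scanner software detected on every array of at least 1 group. The arrays read RNA of male germ cells from Sprague-Dawley rats. CPA rats received cyclophosphamide (CPA), an alkylating anticancer drug, by gavage at 6 mg/kg, and saline rats received the vehicle on the same schedule of 6 days a week for 4 weeks. Cells were separated by STA-PUT, a sedimentation at unit gravity that sorts dissociated testis cells by size and yields enriched fractions, not pure ones. The 4 groups held 5 arrays each: CPA round spermatids, saline round spermatids, CPA pachytene spermatocytes and saline pachytene spermatocytes. Arrays are named here by the rat number in their labels. The number 16 stands on 2 CPA pachytene arrays, which are told apart by a year and called the earlier and the later rat 16.

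Pachytene spermatocytes are in the long prophase of meiosis, when homologous chromosomes pair and recombine, while round spermatids, the haploid product of the meiotic divisions, later elongate into sperm. A miRNA gene is transcribed into a hairpin, the precursor, which the enzyme Dicer cuts into a duplex of a 5p arm and a 3p arm. Usually one arm, the guide, is loaded into an Argonaute protein and the other is degraded, and the loaded arm represses messages that pair with its seed, the bases near its 5′ end. The 5p arms of the miR-30 family share a seed and are the usual guides. In human cells miR-30a-5p is known to repress Beclin 1, an autophagy protein, and miR-30 members to repress SNAI1, a transcription factor of the epithelial-mesenchymal transition.

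RefSeq held mature sequences for 5 of the 8 members and for 2 of the 4 other arms named below, on the GRCr8 build. They are printed 5′ to 3′ with the seed (bases 2 to 8) in capitals, because the 5p and 3p arms of a precursor carry different seeds and because miR-30a-5p and miR-30e-5p, whose values are set side by side, are nearly identical.
miR-30a-5p: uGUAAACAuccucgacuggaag
miR-30e-5p: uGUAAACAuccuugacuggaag
miR-30c-5p: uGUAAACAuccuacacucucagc
miR-30a-3p: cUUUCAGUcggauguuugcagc
miR-30c-2-3p: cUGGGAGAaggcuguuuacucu
The 3 printed 5p arms carried the same seed, GUAAACA. The 3p arms carried UUUCAGU in miR-30a-3p and UGGGAGA in miR-30c-2-3p. Counted from 1 at the 5′ end of miR-30a-5p, miR-30e-5p differed from it by the single substitution C13U, and miR-30c-5p differed from it at 5 of the 22 bases compared, all outside the seed. Both arms of miR-30a lie on the plus strand of chromosome 9, the 5p arm at chr9:33233946-33233967 and the 3p arm at chr9:33233987-33234008. The precursor of miR-30c-2 follows 19670 bases further on, with miR-30c-5p at chr9:33253695-33253717 and miR-30c-2-3p at chr9:33253735-33253756. A second gene for miR-30c-5p lies on the minus strand of chromosome 5, at chr5:139634505-139634527, and 2906 bases separate its precursor from that of miR-30e, whose 5p arm is at chr5:139637504-139637525. The signal of miR-30c-5p therefore comes from 2 precursors that an array cannot tell apart.

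Signals are given as scaled signal, the background-subtracted brightness of a probe after each array was brought to the same 75th percentile, and differences as log2. Signals of different probes are not compared with each other, because equal amounts of different miRNAs need not give equal signals on their probes. Values under 12.73 on the scaled signal, the level of the dimmest spots that were well above background, were raised to that floor before taking log2. Over the tested miRNAs, arrays within a group had pairwise r of 0.958 to 0.996. Detected miRNAs per array ranged from 181 to 281, and the lowest numbers were 181 in CPA round spermatids of rat 14 and 193 in saline round spermatids of rat 16. All 5 listed germ cell miRNAs of the miR-34 and miR-449 families, which are known from meiotic and post-meiotic cells, were detected on every array, with a summed scaled signal of 24090 to 37180 in CPA round spermatids, 16440 to 32400 in saline round spermatids, 16280 to 25340 in CPA pachytene spermatocytes and 16780 to 25140 in saline pachytene spermatocytes.

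Round spermatids were compared with pachytene spermatocytes within each treatment. The clearest change of the family was in miR-30a-5p, which was lower in round spermatids in both treatments, while miR-30e-3p, the 3p arm of another precursor, was higher in the main scaling and lost its call or turned under several others. In the main scaling miR-30c-5p was lower in CPA rats, and miR-30b-5p, miR-30d-5p and miR-30e-5p did not pass the test in either treatment. For the 3 precursors whose arms were compared, miR-30a, miR-30c-2 and miR-30e, the 5p signal fell relative to the 3p signal in saline rats. In CPA rats it did so for 2 of them. With slides blocked, 0 of the 3 passed in saline rats. The 3p arm of miR-30c-2 lay at the floor on every pachytene array.

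rno-miR-30a-5p, the usual guide arm of miR-30a, had scaled signals of 168, 148, 172, 146 and 145 in CPA round spermatids of rats 14, 15, 16, 25 and 26, against 201, 206, 209, 215 and 212 in CPA pachytene spermatocytes of rats 7, 15, the earlier 16, the later 16 and 29. Saline rats gave 172, 154, 147, 170 and 140.0 in round spermatids of rats 15, 16, 17, 25 and 28, against 209, 192, 214, 208 and 217 in pachytene spermatocytes of rats 13, 16, 25, 26 and 28. Every spermatid array lay below every pachytene array in each treatment. The difference was -0.42 ± 0.065 on the log2 scale (SE, n = 5 and 5) in CPA rats and -0.41 ± 0.065 in saline rats, that is 1.34-fold and 1.33-fold lower (limma with Benjamini-Hochberg adjustment over 217 miRNAs, adjusted p = 2.04e-05 and 2.83e-05). Across all tested miRNAs 52.1% in CPA rats and 47.5% in saline rats passed the same threshold of 0.05, so a stage difference by itself was common on these arrays. The groups did not overlap for 38.7% and 34.6% of the tested miRNAs. Fewer cells of a type in a fraction and less miRNA per cell cannot be told apart in these bulk samples.

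Spermatid fractions also carried more of the listed miRNAs of vessel, muscle and connective tissue cells. Their summed scaled signal over 9 miRNAs was 2075 to 3998 in CPA round spermatids, 2508 to 3824 in saline round spermatids, 591 to 1075 in CPA pachytene spermatocytes and 747 to 1578 in saline pachytene spermatocytes, with 5 of the 7 tested members higher in spermatids in each treatment. Of these, miR-199a-3p, of fibroblasts and other mesenchymal cells, was higher by 1.84 (log2) in CPA rats and 1.83 in saline rats, and the endothelial miR-126a-3p differed by -0.83 (adjusted p = 0.0369 by limma) and -0.73 (adjusted p = 0.0647). The listed muscle markers miR-1-3p and miR-133a-3p were detected on at most 1 array of a group and were not tested. The similarly named miR-133b-3p and miR-1-5p were not on the list but were tested. Both were higher in spermatids in each treatment, with adjusted p under the threshold by limma, so muscle cells are not shown to be absent. The summed signal of 6 blood and immune miRNAs was 160 to 223 in CPA round spermatids, 168 to 233 in saline round spermatids, 72.9 to 122 in CPA pachytene spermatocytes and 95.1 to 124 in saline pachytene spermatocytes, with the red cell miRNA miR-144-3p detected on no array. Of the 3 tested blood and immune miRNAs, 2 were higher in CPA rats and 1 in saline rats. Among them miR-223-3p, of myeloid cells, was higher by 1.96 in CPA rats and 2.15 in saline rats. In the other direction, miR-150-5p differed by -0.395 and -0.241 and did not pass the test (adjusted p = 0.333 and 0.59 by limma). The 4 spermatogonial miRNAs summed to 662 to 700.1, 644 to 712, 649 to 856 and 739 to 833 in the same order of groups, and 4 Sertoli and gonadal somatic miRNAs to 296 to 600.2, 263 to 617, 376 to 486 and 404 to 509. Members of these lists moved apart beneath such sums. Of the spermatogonial miRNAs 2 were lower and 1 higher in CPA spermatids, and 3 lower and 1 higher in saline spermatids. miR-221-3p differed by -1.71 in CPA rats and -1.64 in saline rats, miR-222-3p by -1.59 and -1.44, and miR-146a-5p by 1.62 and 2.01. The gonadal somatic miR-202-3p differed by -1.54 in CPA rats and -1.76 in saline rats, all with adjusted p under the threshold by limma. Of the 3 tested gonadal somatic miRNAs, 1 was lower and 1 higher in each treatment. The higher one, miR-132-3p, differed by 0.52 in CPA rats and 0.325 in saline rats (adjusted p = 0.000613 and 0.0205 by limma). Of 5 epithelial miRNAs, 4 were detected on no array. The part of these other cells in the miR-30 results was not tested.

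**Figure D1:**
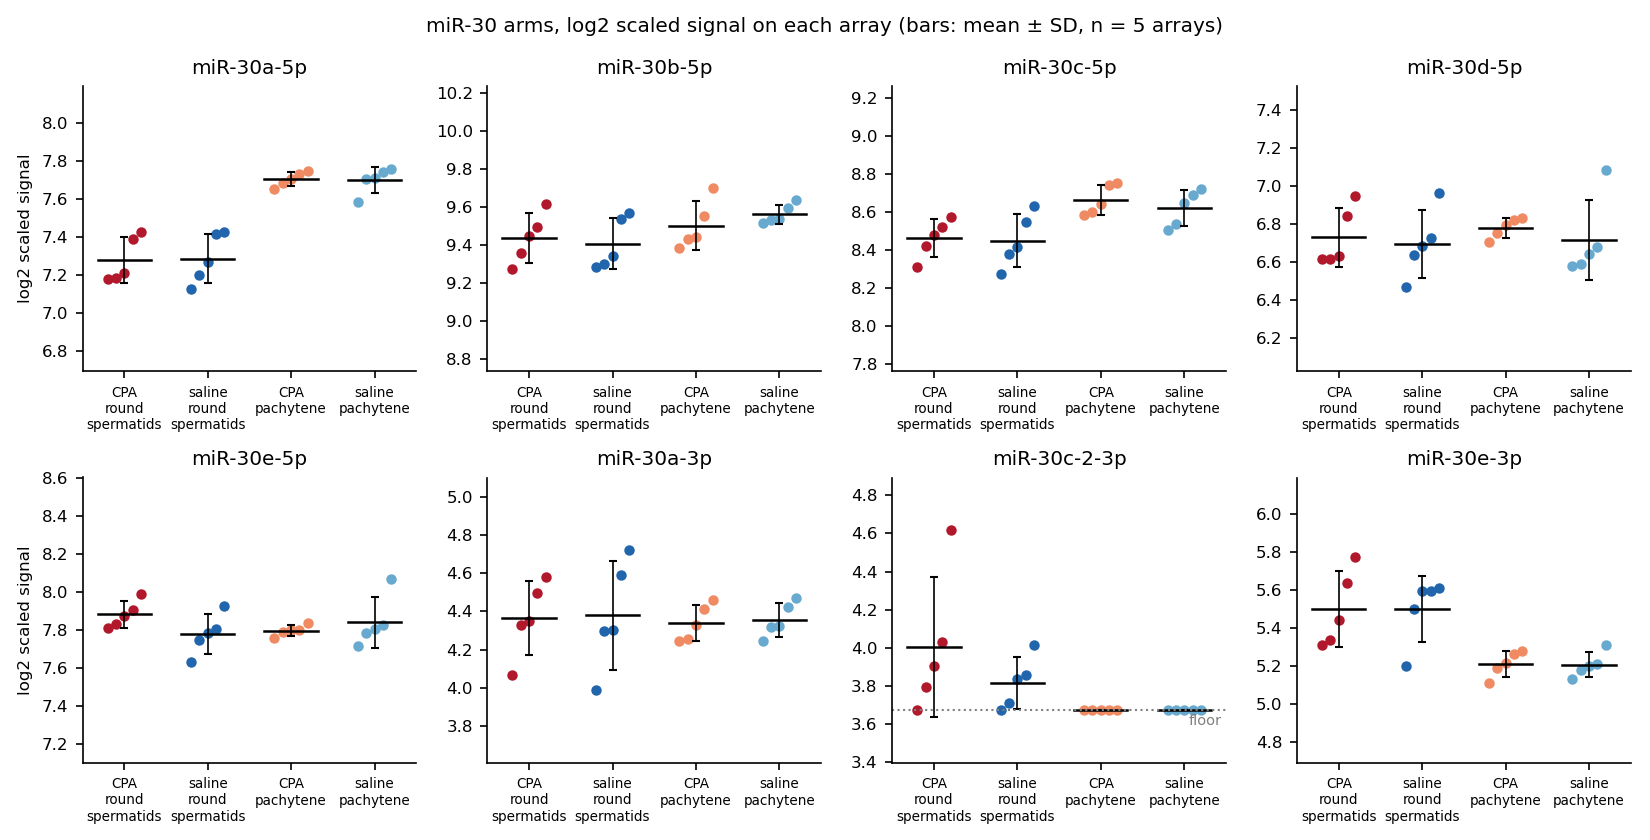
Scaled signal on a log2 scale (vertical axis) of the 8 miR-30 arms on each of the 20 arrays, by group (horizontal axis), with black bars for the mean ± SD of 5 arrays; each panel spans the same height in log2 units. All spermatid points of miR-30a-5p lie below all pachytene points, and all pachytene points of miR-30c-2-3p lie on the floor of 3.67.

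rno-miR-30c-5p, the other 5p arm that changed, had 343, 381, 368, 357 and 318 in CPA round spermatids (rats in the order above), against 400.0, 384, 388, 429 and 431 in CPA pachytene spermatocytes. In saline rats the signals were 374, 397, 333, 342 and 309.9 in round spermatids, against 372, 364, 423, 401 and 412 in pachytene spermatocytes. CPA groups did not overlap, the highest spermatid array being just under the lowest pachytene array, and saline groups did. The difference was -0.20 ± 0.070 (SE) in CPA rats and -0.17 ± 0.070 in saline rats, with adjusted p = 0.0209 and 0.0511 by limma. Single arrays moved it across the threshold in each treatment. Without CPA pachytene rat 29, the later CPA pachytene rat 16 or CPA spermatid rat 26 the CPA difference was -0.18, -0.18 and -0.17 and did not pass (adjusted p = 0.0555, 0.0526 and 0.0595). Without saline pachytene rat 13 or 16, saline spermatid rat 15 or 16, or CPA spermatid rat 15 or 26, the saline difference ran from -0.22 to -0.17 and passed, with the adjusted p between 0.0128 and 0.0493.

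The other 3 of the 5p arms did not pass the test in either treatment in the main scaling. rno-miR-30b-5p, the guide arm of miR-30b, had 618 to 786 in CPA round spermatids, 624 to 758 in saline round spermatids, 667 to 832 in CPA pachytene spermatocytes and 731 to 795 in saline pachytene spermatocytes. Its stage difference was -0.06 in CPA rats (95% interval -0.22 to 0.09) and -0.16 in saline rats (-0.31 to 0.0032), with adjusted p = 0.469 and 0.0976 by limma. Without saline spermatid rat 15 the saline value was -0.20 and passed (adjusted p = 0.0447). With quantile normalization miR-30b-5p passed in both treatments, at -0.24 in CPA rats and -0.28 in saline rats (adjusted p = 0.0204 and 0.00722 by limma). With the 75th percentile over all probe spots it passed as well, at -0.27 and -0.40 (adjusted p = 0.0494 and 0.00515). rno-miR-30d-5p had 97.8 to 123, 88.4 to 125, 104 to 114 and 95.6 to 136 in the same order of groups, which all overlapped. Its difference was -0.05 in CPA rats (-0.26 to 0.16) and -0.02 in saline rats (-0.23 to 0.19). rno-miR-30e-5p had 225 to 255, 199 to 244, 216 to 229 and 210.2 to 269, with differences of 0.09 in CPA rats (-0.05 to 0.22) and -0.06 in saline rats (-0.19 to 0.07). The groups overlapped for all 3 arms, and the bound farthest from 0 among their intervals was -0.31, so the levels are not shown to be equal.

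miR-30a-5p and miR-30e-5p differ by the substitution C13U and were read by separate probes. Whether the probes of one also read the other was not tested. On the same array, log2 miR-30a-5p minus log2 miR-30e-5p averaged -0.61 in CPA round spermatids and -0.09 in CPA pachytene spermatocytes, a change of -0.51. Saline rats averaged -0.49 in round spermatids and -0.14 in pachytene spermatocytes, a change of -0.35. The groups did not overlap in either treatment. The pair was chosen after its values were seen and is given as a description, with no test. The same subtraction from miR-30b-5p, miR-30c-5p and miR-30d-5p changed by -0.36, -0.22 and -0.37 in CPA rats and by -0.26, -0.24 and -0.39 in saline rats. The groups did not overlap for miR-30c-5p in both treatments and for miR-30d-5p in CPA rats either. Over the 216 other tested miRNAs, the subtraction from each gave groups that did not overlap for 59.3% in CPA rats and 51.4% in saline rats, so such a separation was common.

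Among the 3p arms, rno-miR-30e-3p had 40.4, 49.6, 39.6, 43.4 and 54.6 in CPA round spermatids, against 37.1, 36.5, 34.5, 38.7 and 38.3 in CPA pachytene spermatocytes. Saline rats had 48.8, 36.7, 45.2, 48.3 and 48.2 in round spermatids, against 35.0, 36.2, 39.6, 36.7 and 37.0 in pachytene spermatocytes. The CPA groups did not overlap, and in saline rats the spermatid array of rat 16 lay among the pachytene arrays. The difference was 0.29 ± 0.089 (SE) in both treatments, with adjusted p = 0.0116 in CPA rats and 0.0107 in saline rats by limma. Blocked by slide, it was 0.24 in CPA rats (adjusted p = 0.0219) and 0.15 in saline rats (adjusted p = 0.185). Within slide 2 the saline difference was -0.04, from 1 spermatid array. The direction of miR-30e-3p also depended on the scaling: with no scaling it was -0.12 in CPA rats and -0.18 in saline rats, and with labelling spike-ins -0.43 and -0.94, while the median difference of all tested miRNAs was -0.20, -0.37, -0.50 and -1.02 in those fits. Relative to those medians it was 0.08, 0.19, 0.08 and 0.08 higher. With the 75th percentile over all probe spots it was 0.08 in CPA rats (adjusted p = 0.589) and 0.05 in saline rats (adjusted p = 0.798), and with quantile normalization 0.22 (adjusted p = 0.137) and 0.28 (adjusted p = 0.0748). The call was lost or the direction turned under 8 of 37 alternatives in CPA rats and 13 of 38 in saline rats.

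rno-miR-30a-3p, the 3p arm of the precursor whose 5p arm was lower in spermatids, had 16.8 to 24.0 in CPA round spermatids, 15.9 to 26.4 in saline round spermatids, 19.0 to 22.0 in CPA pachytene spermatocytes and 19.0 to 22.1 in saline pachytene spermatocytes. Its stage difference was 0.03 in CPA rats (95% interval -0.22 to 0.27) and 0.02 in saline rats (-0.22 to 0.27), with adjusted p = 0.876 and 0.902 by limma. Its spermatid arrays reached both below and above all of its pachytene arrays.

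rno-miR-30c-2-3p, the 3p arm of miR-30c-2, was detected on every array except 1 of saline pachytene spermatocytes. It had 24.6, 16.4, 15.0, 12.5 and 13.9 in CPA round spermatids, against 9.96, 9.78, 9.73, 10.6 and 9.95 in CPA pachytene spermatocytes. The saline signals were 14.5, 16.2, 13.1, 14.2 and 11.7 in round spermatids, against 9.96, 8.24, 8.74, 8.82 and 10.9 in pachytene spermatocytes. Before the floor was applied the groups did not overlap in either treatment, and the share of all tested miRNAs so separated was not counted. But every pachytene array and 1 spermatid array of each treatment lay under the floor of 12.73. With values raised to the floor the groups were no longer apart in either treatment. The fitted difference was therefore set in part by the floor: 0.33 ± 0.12 (SE) in CPA rats and 0.15 ± 0.12 in saline rats, with adjusted p = 0.0295 and 0.34 by limma. With the floor divided by 2 it was 0.68 and 0.58, with adjusted p = 0.0003996 and 0.001807. Leaving out CPA spermatid rat 15, CPA pachytene rat 29 or the earlier CPA pachytene rat 16 moved the adjusted p of the CPA difference to 0.0545, 0.0503 and 0.0504. Without CPA spermatid rat 14, the brightest array, the CPA difference was 0.18 (adjusted p = 0.0419). With labelling spike-ins it was -0.0071.

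**Figure D2:**
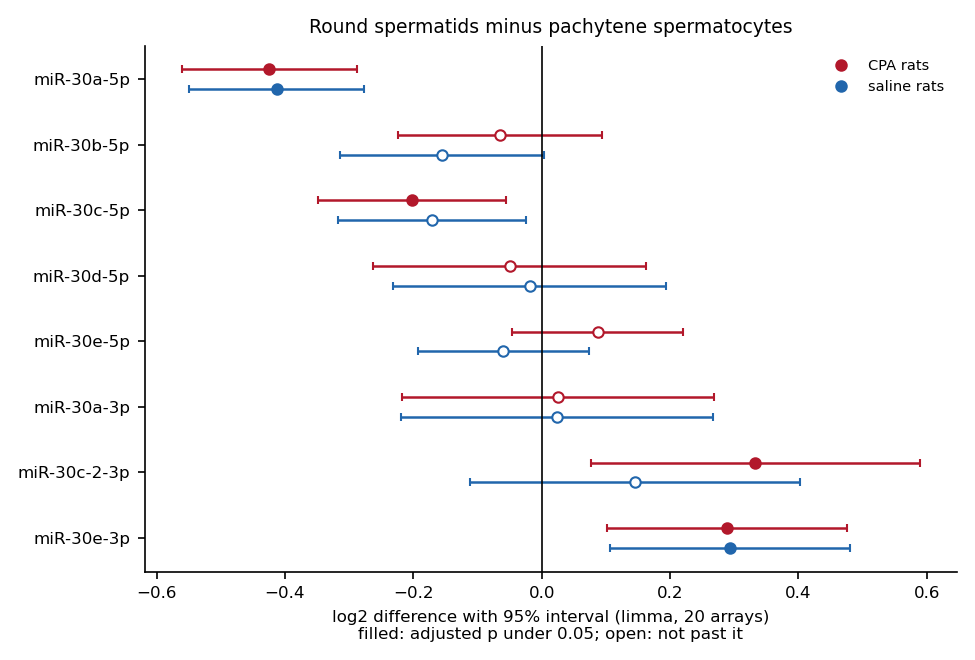
Round spermatids minus pachytene spermatocytes on a log2 scale (horizontal axis) for the 8 arms, with 95% intervals from limma, in CPA rats (upper of each pair) and saline rats (lower); filled points had an adjusted p under 0.05. miR-30a-5p lies left of 0 and miR-30e-3p right of 0 in both treatments.

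Of the 5 members from the 5p side, 2 were lower in spermatids in CPA rats and 1 in saline rats, and none was higher. Of the 3 members from the 3p side, 2 were higher in CPA rats and 1 in saline rats, and none was lower. Over all tested miRNAs 29.5% rose and 22.6% fell in CPA rats, and 25.8% rose and 21.7% fell in saline rats. The median size of the stage difference was 0.145 in CPA rats and 0.151 in saline rats for the 8 members, against 0.368 and 0.337 over all tested miRNAs. The 95% intervals of all 8 members lay within a 2-fold change in each treatment, as did those of 153 and 157 of the 217 tested miRNAs. Those counts depended on the scaling: with the 75th percentile over all probe spots, 37 miRNAs were higher and 75 lower in CPA rats, and 36 higher and 76 lower in saline rats, against 64 higher and 49 lower and 56 higher and 47 lower in the main scaling. With that percentile 4 members passed the test in CPA rats and 5 in saline rats, all of them 5p arms and lower in spermatids. miR-30a-5p was lower under every scaling tried, and its difference from the median of all tested miRNAs ran from -0.28 to -0.65 over those scalings and background corrections.

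The arrays were hybridised on 3 slides, and slide 3 held no pachytene array. In a fit blocked by slide, the stage difference of miR-30a-5p was -0.40 in CPA rats (adjusted p = 7.008e-05) and -0.35 in saline rats (adjusted p = 0.001074). Within slide 1 it was -0.32 and -0.22, and within slide 2 -0.54 and -0.47, with adjusted p = 0.0446, 0.267, 0.00032 and 0.0004457 by limma. Saline rats had 1 spermatid array on each of those slides and CPA rats had 1 on slide 2, so every within-slide value except the CPA values of slide 1 rests on a single spermatid array, assumed to vary like the other groups. The blocked value of miR-30c-5p was -0.13 in CPA rats (adjusted p = 0.0325) and -0.03 in saline rats (adjusted p = 0.713). Within slides 1 and 2 it was -0.11 and -0.22 in CPA rats and 0.02 and -0.06 in saline rats. For miR-30e-3p, slides 1 and 2 gave 0.23 and 0.23 in CPA rats, and slide 1 gave 0.45 in saline rats.

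Each array carried 2 probes for each member, with 10 spots per probe, and the brighter one stands for the member above. The other probe of miR-30a-5p gave -0.50 in CPA rats and -0.36 in saline rats, with adjusted p = 0.00442 and 0.0362 by limma over 488 probes. For miR-30e-3p the other probe gave 0.30 and 0.25, and did not pass the test (adjusted p = 0.0647 and 0.131). The other probe of miR-30c-5p gave -0.19 and -0.07 (adjusted p = 0.0981 and 0.644). That of miR-30c-2-3p never exceeded the floor, so its stage difference rests on 1 probe. Both probes of miR-30a-5p thus gave the same direction and passed the test in both treatments.

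The 5p and 3p arms were then compared across stages by taking log2 5p minus log2 3p on each array. Apart from values at the floor, this difference does not depend on the scaling between arrays, and only its change between groups was read, since the level of a probe cannot be set against that of another. It was lower in round spermatids for miR-30a and miR-30c-2 in both treatments and for miR-30e in saline rats. The arms of miR-30c-1 were both tested but not set against each other, and its 3p arm lay at the floor on nearly every array. The changes were found in 3 of the 3 miR-30 precursors compared in saline rats and 2 of 3 in CPA rats. Of all 34 precursors compared, 61.8% in saline rats and 64.7% in CPA rats passed the same threshold. In the lower direction 23.5% of the 34 did so in each treatment.

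For miR-30a the log2 arm difference was 3.32, 2.72, 3.08, 2.86 and 2.59 in CPA round spermatids of rats 14, 15, 16, 25 and 26, against 3.40, 3.27, 3.46, 3.29 and 3.40 in CPA pachytene spermatocytes. Saline values were 2.70, 3.28, 2.90, 2.82 and 2.83 in round spermatids, against 3.39, 3.34, 3.43, 3.28 and 3.29 in pachytene spermatocytes. In each treatment 1 spermatid array, CPA rat 14 and saline rat 16, reached into the pachytene range, and these were the 2 arrays with the fewest detected miRNAs. The change was -0.45 ± 0.12 (SE) in CPA rats and -0.44 ± 0.12 in saline rats, with adjusted p = 0.00317 and 0.0043 by limma over the 34 precursors, and exact two-sided permutation p = 0.02381 and 0.01587 over 252 splits, where 5 against 5 arrays allow no p under 0.007937. With the total gene signal, the software's own sum for a miRNA, the change was -0.30 in CPA rats (adjusted p = 0.303) and -0.22 in saline rats (adjusted p = 0.513), and did not pass. Blocked by slide, the change was -0.39 (adjusted p = 0.008463) and -0.28 (adjusted p = 0.0831). Within slides 1 and 2 it was -0.30 and -0.52 in CPA rats and -0.66 and -0.05 in saline rats.

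The pair miR-30c-5p and miR-30c-2-3p had 3.80, 4.54, 4.62, 4.81 and 4.52 in CPA round spermatids, against 4.97, 4.92, 4.93, 5.07 and 5.08 in CPA pachytene spermatocytes. The saline pair had 4.69, 4.62, 4.67, 4.58 and 4.61 in round spermatids, against 4.87, 4.84, 5.05, 4.98 and 5.02 in pachytene spermatocytes. Spermatid and pachytene arrays did not overlap in either treatment, as was so for 50% of the 34 precursors in CPA rats and 41.2% in saline rats. The change was -0.54 ± 0.13 in CPA rats and -0.32 ± 0.13 in saline rats (SE), with adjusted p = 0.00132 and 0.0391 by limma and exact permutation p = 0.007937 for each. The 3p arm was at the floor on all pachytene arrays, and with the floor divided by 2 the change was -0.88 and -0.75. The saline change lost its call without saline pachytene rat 25, 26 or 28 or saline spermatid rat 16, 17, 25 or 28 (-0.29 to -0.33, adjusted p between 0.0555 and 0.0759) and when slides were blocked (-0.30, adjusted p = 0.0941). Slides 1 and 2 gave -0.62 and -0.22 in CPA rats and -0.16 and -0.40 in saline rats.

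For miR-30e the difference was 2.54, 2.36, 2.60, 2.39 and 2.04 in CPA round spermatids, against 2.59, 2.57, 2.68, 2.53 and 2.58 in CPA pachytene spermatocytes. It was 2.32, 2.44, 2.29, 2.15 and 2.22 in saline round spermatids, against 2.65, 2.54, 2.76, 2.63 and 2.60 in saline pachytene spermatocytes. The saline groups did not overlap and the CPA groups did. The change was -0.20 ± 0.093 in CPA rats and -0.35 ± 0.093 in saline rats (SE), with adjusted p = 0.0592 and 0.00299 by limma and exact permutation p = 0.07143 and 0.007937. Without CPA spermatid rat 14 or 16 the CPA change was -0.24 and -0.25 and passed (adjusted p = 0.0331 and 0.0241), and without CPA spermatid rat 26 it was -0.12 (adjusted p = 0.213). Blocked by slide, the saline change was -0.19 (adjusted p = 0.0684). Slides 1 and 2 gave -0.08 and -0.20 in CPA rats and -0.27 and -0.23 in saline rats.

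In the main scaling the arms behind these changes differed between precursors. In miR-30a the 5p arm was lower and the 3p arm did not pass the test, and in miR-30e the 3p arm was higher and the 5p arm did not pass. For miR-30e this depended on the scaling: with the 75th percentile over all probe spots, saline rats gave -0.31 for miR-30e-5p (adjusted p = 0.011) and 0.05 for miR-30e-3p (adjusted p = 0.798). For miR-30a it did so as well. With labelling spike-ins, saline rats gave -1.645 for miR-30a-5p and -0.97 for miR-30a-3p (adjusted p = 3.56e-05 and 0.00172 by limma). The median difference of all tested miRNAs was -1.02 in that fit. Among all precursors the smallest p-values belonged to miR-652 (2.04), miR-143 (-1.53) and miR-547 (1.27) in CPA rats and to miR-652 (1.70), miR-742 (0.83) and miR-106b (-0.71) in saline rats.

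**Figure D3:**
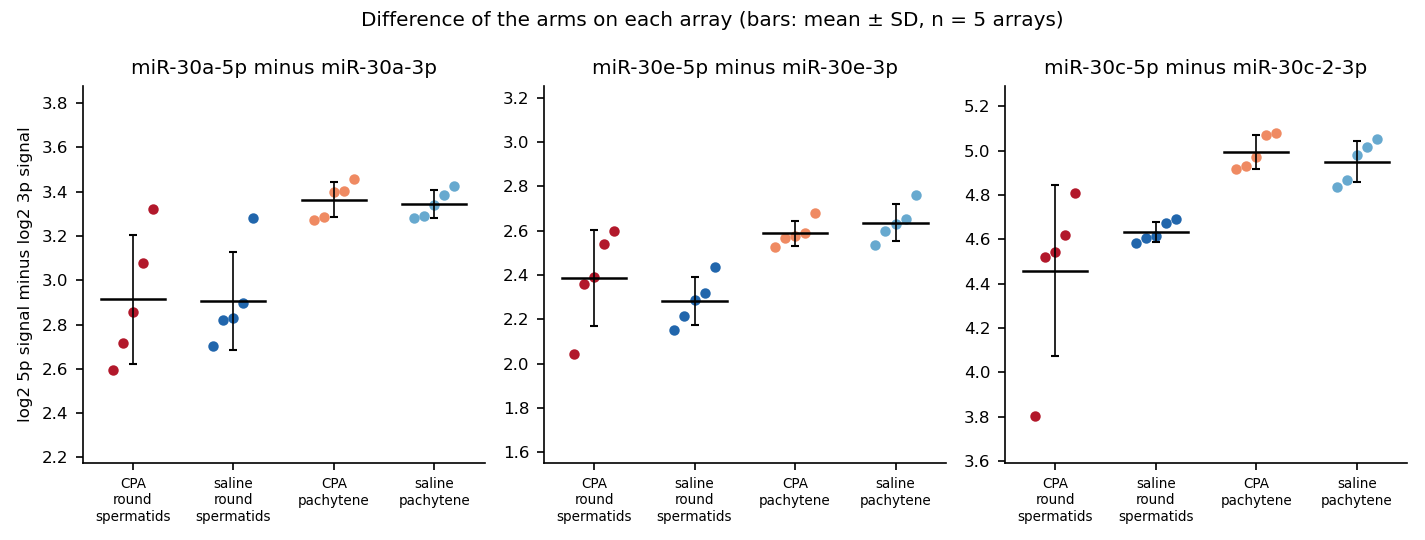
log2 5p signal minus log2 3p signal (vertical axis) on each array by group (horizontal axis) for miR-30a, miR-30e and miR-30c-2, with black bars for the mean ± SD of 5 arrays. Spermatid means lie below pachytene means in all 3 panels, and CPA rat 14 stands at 3.80 in the panel of miR-30c-2.

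Cyclophosphamide was compared with saline within each cell type, which asks whether these miRNAs differed after exposure to the drug. None of the 8 members passed the test in round spermatids or in pachytene spermatocytes. In round spermatids the differences ran from -0.01 to 0.19, and in pachytene spermatocytes from -0.06 to 0.07, on the log2 scale. The background was 0% of the 217 tested miRNAs called in each cell type by limma with Benjamini-Hochberg adjustment, with 4 miRNAs (1.84%) in spermatids and 1 (0.461%) in pachytene cells at an unadjusted p under 0.05, none of them a member. miR-30e-5p gave 0.10 in round spermatids (95% interval -0.03 to 0.24) and miR-30c-2-3p gave 0.19 (-0.07 to 0.44), both with adjusted p = 0.81. Group means of miR-30a-5p were 7.28 ± 0.12 in CPA and 7.29 ± 0.13 in saline round spermatids (log2 scaled signal, SD, n = 5 each), and 7.70 ± 0.038 in CPA and 7.70 ± 0.070 in saline pachytene spermatocytes. The bound farthest from 0 was 0.44, so differences up to that size lie within the intervals. For miR-30c-2-3p in spermatids, CPA rat 14 at 24.6 lay above all other arrays and the difference without it was 0.03, while CPA and saline pachytene values of that arm all lay at the floor.

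**Figure D4:**
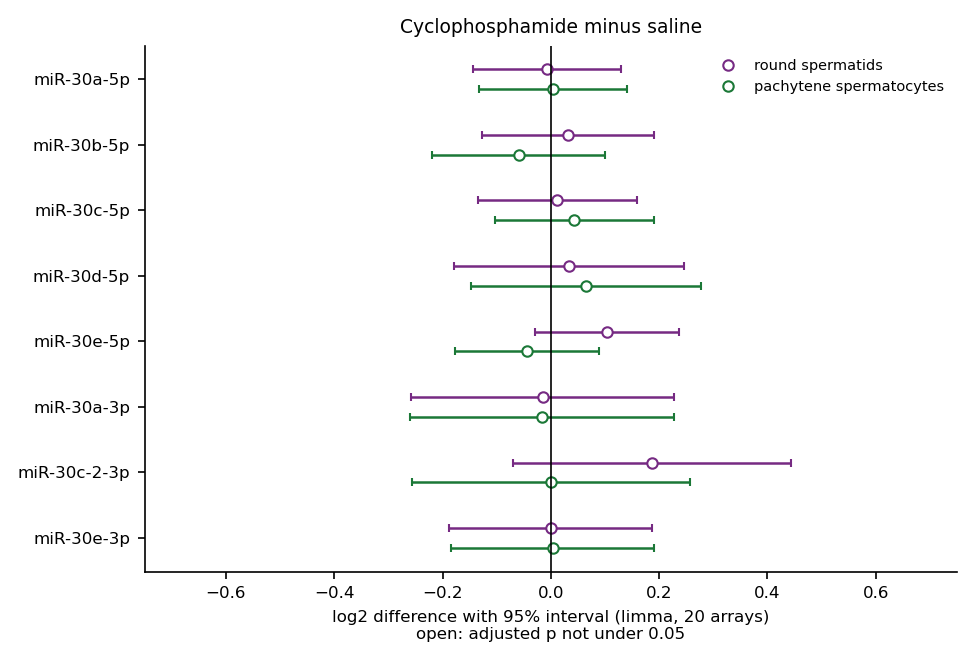
CPA minus saline on a log2 scale (horizontal axis) for the 8 arms, with 95% intervals from limma, in round spermatids (upper of each pair) and pachytene spermatocytes (lower). All 16 intervals include 0.

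No member passed the test for a drug effect that differs between cell types. The difference between the 2 drug effects ran from -0.03 to 0.19, with adjusted p = 1 for all 8 by limma, and 0% of the 217 miRNAs were called (1, or 0.461%, at an unadjusted p under 0.05). The widest of these intervals, that of miR-30c-2-3p, was -0.18 to 0.55, and without CPA spermatid rat 14 that value was 0.03 in place of 0.19. The arm differences showed no drug effect past the threshold either. In round spermatids they were 0.01 for miR-30a, -0.18 for miR-30c-2 and 0.10 for miR-30e, and in pachytene spermatocytes 0.02, 0.04 and -0.05, with adjusted p from 0.65 to 0.994 (without CPA spermatid rat 14 the spermatid value of miR-30c-2 was -0.01) and 0% of the 34 precursors called (1, or 2.94%, at an unadjusted p under 0.05 in each cell type).

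Other arms of the family on the array were mostly dark. miR-30d-3p and miR-384-5p, a brain miRNA with the miR-30 seed, were detected on no array, and miR-30b-3p on 2 arrays, both of saline pachytene spermatocytes. miR-30c-1-3p, the 3p arm of the other miR-30c precursor, was detected on 2 arrays of CPA round spermatids, 2 of saline round spermatids, all 5 of CPA pachytene spermatocytes and 4 of saline pachytene spermatocytes. Its scaled signal reached at most 12.89, so it lay at the floor on nearly every array and no stage difference could be read from it. It carries the seed UGGGAGA of miR-30c-2-3p.

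The miRNAs whose profile over the 20 arrays was nearest to the mean of the 5p members were miR-106b-3p, miR-99b-3p and miR-20a-3p, with root mean square distances of 0.084, 0.089 and 0.093 log2 units after centring each miRNA. The median distance of the 209 tested miRNAs outside the family was 0.328. Nearest to the mean of the 3p members were let-7a-5p, miR-219-5p and miR-192-5p, at 0.098, 0.103 and 0.109 against a median of 0.348. All 6 had stage differences between -0.12 and 0.11, and none passed the test. For miR-192-5p the saline difference was 0. A distance of this kind is also small where both profiles are nearly flat, so nearness need not mean a shared pattern. The distances share the arrays and their scaling, and are given as a description.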

How the data were processed

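Germ cell miRNAs were read on 20 one-colour Agilent arrays, 5 for each of the 4 groups, and samples were grouped by their labels. Per the file headers, the deposited scanner output was made with Agilent Feature Extraction 11.5.1.1. Its processed signal is a linear spot intensity from which the software subtracted background, with no scaling across arrays. The value table deposited by the authors holds log2 values centred per miRNA, and how they were normalized is not given in the sources used here, with column medians from -0.12 to 0.40. It matched 1 member by exact name, miR-30b-5p (r = 0.602 with the scanner values), and served as an alternative. The processed signal of CPA round spermatid rat 14 is deposited rounded to 3 significant digits. Each file lists 14255 spots, 13540 of them probes and 715 controls, and the software marked 18.9% to 31.4% of the probe spots per array as well above background. Precision is limited by the 5 arrays per group.

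Each array was scaled to a shared 75th percentile, computed from the 2176 spots that exceeded background clearly on all arrays. Values under the floor of 12.73 (log2 3.67) were raised to it before log2 was taken. Control spots and 379 to 635 outlier spots per array were left out, no spot was saturated, and the spots of a probe were averaged. The brightest probe stood for a miRNA. Comparisons used limma (version 3.58.1, R 4.3.3) with a model of 4 group means with 16 residual degrees of freedom, over 217 miRNAs, and over 34 precursors for the arm difference. Adjusted p-values follow Benjamini and Hochberg with a threshold of 0.05. The fit was tested on simulated data. Figures were drawn with Python 3.11.15 and matplotlib 3.10.9. Sequences and positions come from RefSeq on GRCr8, and the array design's older build was not used for positions.

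The members, the marker lists and the tests were chosen with earlier results of these data known. All 8 members are named whatever their values, with the other arms of the family on the array, the 3 precursors of smallest p in each stage comparison, and the 3 miRNAs outside the family nearest in profile to the 5p and to the 3p members. Alternatives covered scaling, signal, background correction, probe, filter, floor, slide, scan date, the samples in the fit and leaving out each array. The scanner files hold no mean signal, so normexp with an offset of 50 was run on the median signal, in place of the mean signal named in the plan. Rat numbers recur across groups, and the labels do not settle whether equal numbers within a treatment mark the same rat. The numbers were not taken to pair the samples. The deviations of equally numbered arrays correlated at 0.07, 0.17 and -0.29 between the saline cell types and at 0.61, 0.0021 and 0.34 between the treatments in round spermatids. So few correlations cannot decide whether the arrays are paired, and the second set joins rats of different treatments. Equal numbers between the CPA cell types were not checked. Where nothing says that arrays came from separate rats, p-values measure the spread between arrays, which may be technical.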

Additional observations from a re-analysis of the deposited data

Results flagged for a closer look

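Of 44 sets of 5 arrays checked for a single array far from the other 4 (Dixon's ratio above 0.71), 3 held one, and chance flags about 1 set in 20. miR-30d-5p stood at a log2 scaled signal of 7.083 on the saline pachytene array of rat 25, where the other 4 arrays lay between 6.578 and 6.675. That array also had the group's highest miR-30e-5p signal, at 269, and the highest summed signal of vessel, muscle and connective tissue miRNAs of the pachytene arrays, at 1578. miR-30e-3p stood at 5.196 on the saline round spermatid array of rat 16, against 5.499 to 5.609 on the others. The log2 difference of miR-30c-5p and miR-30c-2-3p stood at 3.803 on the CPA round spermatid array of rat 14, against 4.52 to 4.81 on the others. These last arrays had the fewest detected miRNAs of their groups, 193 in saline rat 16 and 181 in CPA rat 14, and the part of that in the values was not tested.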

How the results depend on the processing

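Of 872 refitted values of the treatment comparisons, 870 kept their side of the threshold, and 2 changed: within slide 2, miR-30c-2-3p was -0.34 for the drug effect in round spermatids and -0.34 for its difference between cell types, so 1 member was called in each. Both rest on 1 array per spermatid group with pachytene values at the floor. Of the 870, 697 also kept their direction. All 184 values of the arm differences by treatment kept their side, 164 of them with their direction. Of 600 stage values 525 kept their side and 480 their side and direction, and of 187 arm differences by stage 153 and 152 did.

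In saline rats 2 members were called by stage in the main setting. The number was 5 with the percentile over all spots, 7 with labelling spike-ins, 0 with normexp, 1 with the slide or the scan date as a block, 0 within slide 1, 4 within slide 2, 1 without slide 3, 1 with the other probe of each member (chosen after seeing the data) and 0 with the replicate block. In CPA rats the main number was 4, with 1 under no scaling, 1 under normexp, 2 among miRNAs detected on all arrays, 1 within slide 1, 1 within slide 2 and 1 with the other probe. Of the arm differences 3 were called in saline rats, with 1 under normexp, 1 within slide 2 and 0 when slides were blocked, within slide 1, without slide 3 or with the replicate block. In CPA rats 2 were called, with 1 under the total gene signal, 0 under normexp, 1 among miRNAs detected on all arrays, 0 within slide 1 and 1 within slide 2. Leaving out 1 array at a time gave 2 to 4 members in saline rats (4 without spermatid rat 15), 2 to 4 in CPA rats (2 without pachytene rat 29), 2 to 3 precursors in each treatment, and 0 for every drug comparison. Calls over all 217 tested miRNAs moved with the scaling as well. Saline rats had 56 higher and 47 lower in the main setting, and 36 and 76 with the percentile over all spots. With spike-ins they had 3 and 156, and with normexp 17 and 13. CPA rats had 64 higher and 49 lower in the main setting, 21 and 50 with no scaling, and 21 and 18 with normexp. The cause of these moves was not tested. The within-slide fits held fewer arrays, and the fits with slide as a block used all arrays. In saline rats the blocked fits gave 0.15 for miR-30e-3p and -0.19 for the arm difference of miR-30e, against 0.29 and -0.35 in the main setting.

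Among values called in one of the settings compared, directions turned for miR-30e-3p and for 2 dim arms. In saline rats miR-30e-3p was -0.18 with no scaling, -0.94 with spike-ins and -0.042 within slide 2, and miR-30a-3p was -0.97 with spike-ins and -0.42 within slide 2. In CPA rats miR-30e-3p was -0.12 with no scaling and -0.43 with spike-ins, and miR-30c-2-3p was -0.0071 with spike-ins. Uncalled 5p values turned as well: miR-30d-5p in saline rats under 8 alternatives (0.11 with slide as a block, 0.19 within slide 2), miR-30e-5p in CPA rats under 3 (-0.63 with spike-ins) and in saline rats under 2 (0.18 within slide 1), and miR-30b-5p in CPA rats with normexp (0.016). The replicate block, run on the rats numbered alike, gave -0.42 for miR-30a-5p between the saline cell types (adjusted p = 0.0729) and changed no call of the drug comparison. The call of miR-30a-5p held in CPA rats under all 37 alternatives and in saline rats under 35 of 38, the exceptions being normexp (-0.21, adjusted p = 0.163), slide 1 alone (-0.22, adjusted p = 0.267) and the replicate block. Signal over background limits miR-30c-2-3p most, since all its pachytene values lay under the floor.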
